A study of Mus musculus with 14 samples.

Results

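LSK cells are the lineage-negative, Sca-1+, c-Kit+ fraction of mouse bone marrow, in which hematopoietic stem cells and multipotent progenitors are found. Gene counts of 1 control LSK library and 1 Dpy30 knockout (KO) LSK library were compared, 2 of the 8 RNA-seq libraries among the 14 samples of the series. A gene was counted where its mean over both libraries was at least 5 counts per 1000000 counted (CPM, scaled by the trimmed mean of M-values, TMM), which kept 10311 of 38926 genes. The level of each gene is given in both libraries, and the ratio is the log2 of KO over control with a prior count of 2.

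Control cells were Mx1-Cre; Dpy30F/+, with 1 floxed and 1 wild-type allele, and KO cells were Mx1-Cre; Dpy30F/-, with 1 floxed and 1 null allele. Both groups thus carried Mx1-Cre and both received pIpC, an inducer of interferon that switches on Mx1-Cre. CD45.2+ donor marrow had been transplanted together with CD45.1+ competitor marrow of C57Bl/6J mice into irradiated CD45.1+ recipients. Injections of pIpC (4 doses of 7.5 µg/g) began 7 weeks after transplantation, and marrow was taken 2 weeks after the last one. Each LSK library is a pool of sorted cells of 2 to 3 chimeric mice. Mx1-Cre is driven by an interferon-inducible promoter that is active in many cell types, so deletion was not limited to stem cells, and hosts also held competitor cells. The age of the donors is not given in the sources used here. Single libraries of myeloid progenitors (MyePro, gate not given in the labels) and 4 libraries of long-term stem cells (LT-HSC), all from chimeras treated alike, serve below to give the same genes' values in other populations.

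DPY30 is a small protein that binds the ASH2L subunit of the SET1 and MLL family of enzymes and raises their activity. These complexes place methyl groups on lysine 4 of histone H3 (H3K4), a mark of active and poised promoters. Multipotent cells of the LSK fraction express genes of several blood lineages at low levels before they commit, so that the fraction holds transcripts of red cell, platelet, granulocyte, dendritic and lymphoid programs side by side.

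The libraries differed in depth and composition. Control LSK held 14974432 gene counts and KO LSK 6130320. The ribosomal-RNA-like entry Gm26924 took 5.37% of gene counts in control and 1.69% in KO, and mitochondrially encoded genes took 2.76% and 4.35%. Dpy30 stood at 78.0 CPM in control (1148 counts) and 42.4 CPM in KO (280 counts), or 54.3% of control (log2 ratio -0.88, with a 95% interval from -1.07 to -0.69). The counts cover the whole gene, and the labels do not name the deleted part, so the gene's level checks the genotype only in part. Transcripts of the sorting markers were present in both libraries. Kit, the receptor of stem cell factor, had 491 CPM in control and 393 CPM in KO. Ly6a, which encodes Sca-1, stood at 31.5 and 62.2 CPM. Both libraries had at most 2 counts of the X-inactivation RNA Xist and held the Y-linked genes Kdm5d (29.0 and 22.99 CPM), Ddx3y (42.8 and 33.6) and Uty (22.2 and 16.3), so the 2 pools did not differ in sex by these genes. With 1 library per genotype no difference has a replicate check and no p-value is given. Intervals on single ratios cover counting error only, not differences between mice or pools. As in any bulk sample, fewer cells of a type and less RNA per cell cannot be told apart.

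A large set of genes differed in both directions. At least 2-fold higher levels in KO were seen for 514 genes (4.98% of those counted) and at least 2-fold lower levels for 555 (5.38%). The middle 50% of genes lay between ratios of -0.33 and 0.27. Ratios were negative for 5513 of the counted genes and positive for 4798. Differences past 4-fold numbered 120 higher and 136 lower, and past 16-fold 20 and 25. With both ends of the counting interval past 2-fold there were 303 higher (2.94%) and 330 lower genes (3.2%). Weakly expressed genes passed more often: 29.4% of genes with a mean of 5 to 10 CPM passed 2-fold in either direction, against 4.47% of those at 200 CPM or more. Of the genes past 2-fold 48.1% were the higher ones. That split was 58.6% with library totals in place of TMM (648 higher, 457 lower), which shifted the median ratio of all genes by 0.13. Among the higher genes, 195 were under 5 CPM in control, and among the lower genes 185 were under 5 CPM in KO. These entered through the library in which they were high, and so did such members of the lists below.

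**Figure D1:**
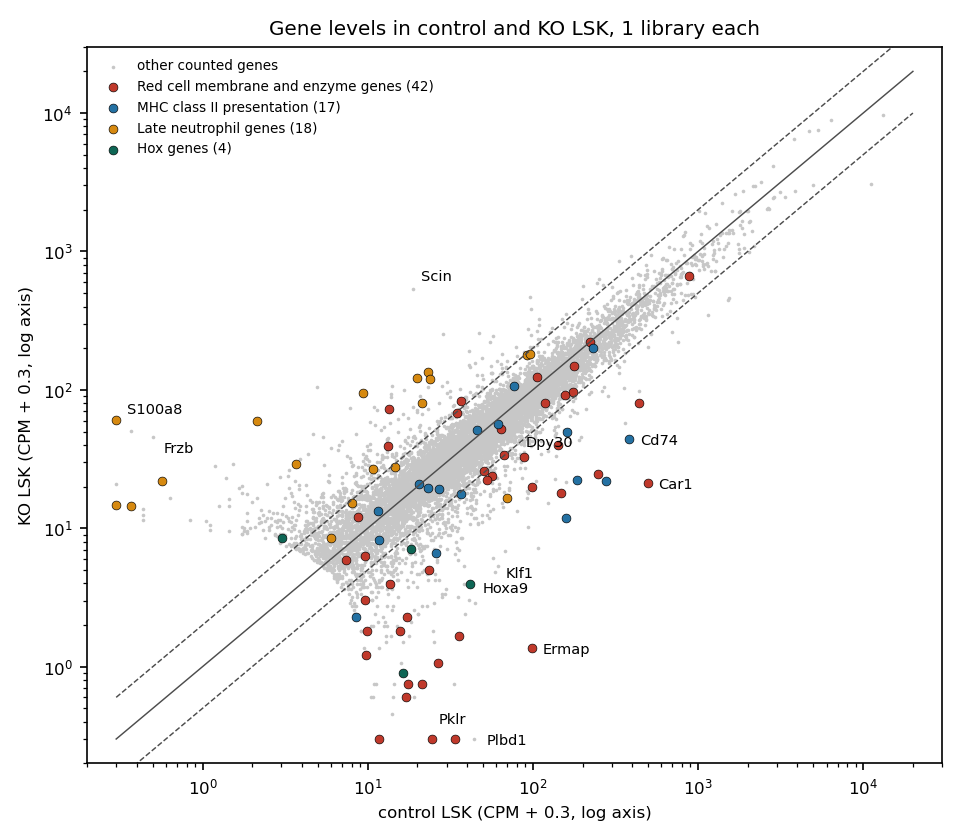
Levels of the 10311 counted genes in control (horizontal) and KO LSK (vertical), in CPM plus 0.3 on log axes, with 1 library each. The solid line marks equal levels and the dashed lines 2-fold. Most red cell genes lie below the lower dashed line, 4 MHC class II genes stand apart below it at high control levels, and late neutrophil genes lie to the upper left.

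The lowest ratios belonged to genes of red cells, MHC class II genes and a few epithelial-type genes. The basophil protease gene Prss34 and the B cell receptor subunit gene Cd79b were also among the 20 lowest. Plbd1, a lysosomal phospholipase B-like protein gene, had 644 counts in control and 0 in KO. Taking 3 counts as the floor, KO was at least 96.4-fold lower. Beyond the red cell genes described below, the 20 lowest held Trib2, encoding a pseudokinase (44.1 and 2.57 CPM), and Krt18, encoding a keratin (40.8 and 2.72). Also among them were Abcb4, encoding a phospholipid transporter (60.9 and 4.99 CPM), Trip6, encoding a LIM-domain protein (38.7 and 2.12), and H1fx, encoding a linker histone variant (35.0 and 2.87). Hnf4a, a nuclear receptor gene best known from liver and gut, had 483 counts in control and 3 in KO.

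The highest ratios belonged to genes of granulocytes, platelets and cytotoxic cells and to genes with no role in blood that is widely known. Scin, encoding the actin-severing protein scinderin, had 18.5 CPM in control and 534 CPM in KO. It had the highest KO level of the 20 and rests on 273 and 3530 counts (log2 ratio 4.84, interval 4.67 to 5.03). Cox4i2, encoding an alternative subunit of cytochrome c oxidase, stood at 1.22 and 29.0 CPM. Tox, a transcription factor gene of lymphoid cells, stood at 7.47 and 73.7 CPM, and Ccr1, a chemokine receptor gene, at 5.09 and 45.1. Cd38, an ectoenzyme gene and surface marker, stood at 2.173 and 20.6 CPM. Less familiar in blood were Tnnt1, a troponin of slow muscle (1.43 and 19.8 CPM), Hs6st2, a heparan sulfate sulfotransferase gene (1.09 and 22.7), and Oosp1, an oocyte-secreted protein gene (1.36 and 19.2). All 20 of the lowest were at least 2-fold lower in KO MyePro as well, and all 20 of the highest at least 2-fold higher. Of all genes counted in LSK, 7.55% were lower and 11.6% higher in KO MyePro, with 1 library per group. MyePro values for the full set follow further below.

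**Figure D2:**
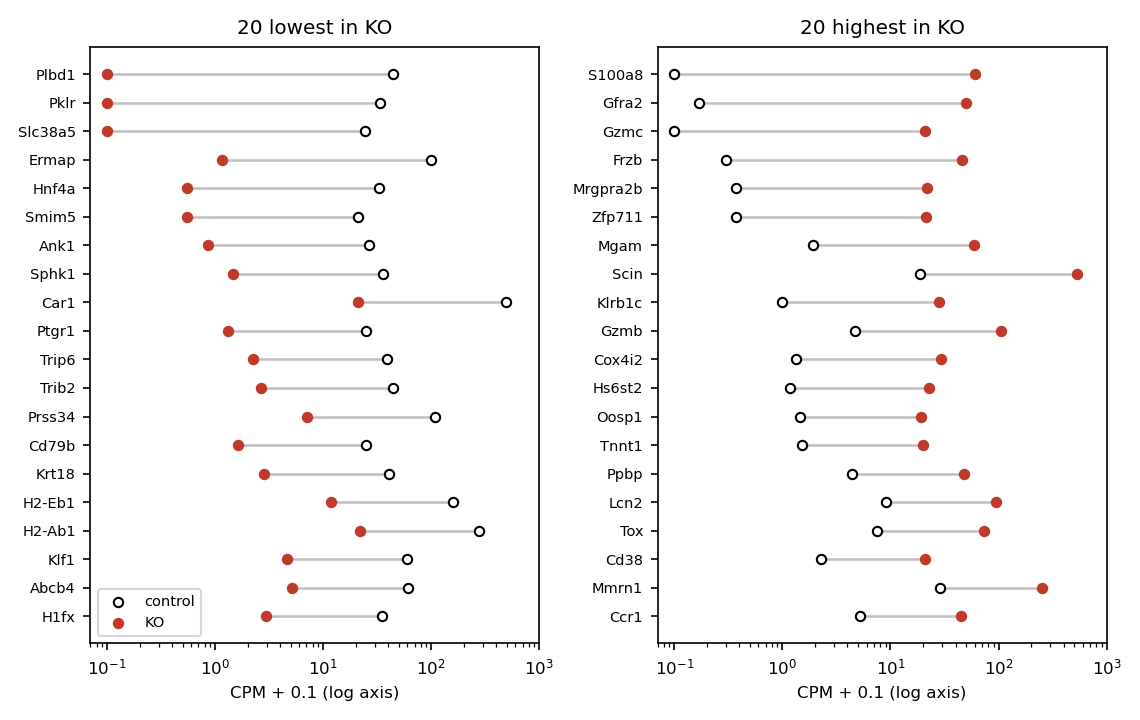
Control (open) and KO (filled) levels, in CPM plus 0.1 on a log axis, of the 20 genes with the lowest and the 20 with the highest KO over control ratios among genes averaging 10 CPM or more, leaving out unnamed and clone-type symbols. Plbd1, Pklr and Slc38a5 had 0 counts in KO, and S100a8 and Gzmc had 0 in control.

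Genes that present antigen on MHC class II were among the lowest in KO LSK. MHC class II molecules display peptides taken up from outside the cell to CD4+ T cells, and dendritic cells, macrophages and B cells carry them. The genes of the I-A and I-E chains and of the invariant chain stood 8.37- to 13.7-fold lower in KO. H2-Aa and H2-Ab1 encode the alpha and beta chains of I-A. H2-Aa had 184 CPM in control and 21.9 CPM in KO (-3.06, with an interval from -3.32 to -2.82), and H2-Ab1 at 276 and 21.6 CPM (-3.66). H2-Eb1, the beta chain of I-E, stood at 159 and 11.6 CPM (-3.75). Cd74, the invariant chain that escorts class II molecules, had the highest control level of these 4, at 384 CPM, and stood at 43.7 CPM in KO (-3.13). The peptide-loading genes H2-DMa (162 and 49.2 CPM) and H2-DMb1 (36.4 and 17.2) and the lysosomal reductase gene Ifi30 (25.5 and 6.35) were lower by smaller factors. Ciita, which encodes the master coactivator of class II genes, stood at 8.22 CPM in control (121 counts) and 1.97 CPM in KO (13 counts). Of 17 counted genes of class II presentation, a list drawn up after their values were seen, 8 were at least 2-fold lower and 0 higher (median -0.53, range -3.75 to 0.47). The 9 within 2-fold included Rfx5, a DNA-binding factor of class II promoters (22.9 and 19.2 CPM), and Ctss, encoding cathepsin S (76.1 and 105.7 CPM). Genes of MHC class I presentation, taken the same way, had 0 of 17 past 2-fold (median -0.16, range -0.63 to 0.62).

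Promoters of class II genes carry the Y box, which is bound by NF-Y. Of the 8 class II genes lower in KO, 5 had an entry in the RefSeq promoter table (GRCm38.p6), and 2 of these hold the motif. Of the 9 others 8 had an entry, and 1 of these holds it, H2-Oa, which was within 2-fold (11.4 and 7.87 CPM). As an entry was found for 62.5% of the lower and 88.9% of the other class II genes, these shares were not compared. The promoters of the 2 lower genes with the motif are shown as examples. Each is the 250 bases before the annotated start, 5′ to 3′ on the gene's strand, with the letters CTGATTGG in capitals.
H2-Aa: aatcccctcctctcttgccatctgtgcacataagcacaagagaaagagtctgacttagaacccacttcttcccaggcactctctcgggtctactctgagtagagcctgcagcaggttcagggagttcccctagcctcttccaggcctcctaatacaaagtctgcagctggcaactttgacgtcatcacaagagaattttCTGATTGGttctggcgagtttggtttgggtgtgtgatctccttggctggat
H2-Eb1: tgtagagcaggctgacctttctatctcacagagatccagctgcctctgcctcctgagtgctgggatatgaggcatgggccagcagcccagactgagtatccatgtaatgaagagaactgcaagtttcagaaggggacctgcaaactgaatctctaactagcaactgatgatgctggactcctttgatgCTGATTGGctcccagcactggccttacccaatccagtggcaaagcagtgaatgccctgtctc
The H2-Aa stretch (chr17:34287824-34288073, minus strand) holds the motif once, starting 51 bases before the start, and the H2-Eb1 stretch (chr17:34305617-34305866, plus strand) once, starting 62 bases before it. Searched on both strands in windows running from 250 bases before to 50 after the first listed start, the motif was in 4.31% of the windows of 27025 genes and in 6.02% of those of counted genes with an entry. The genes of the NF-Y subunits themselves were near equal in the libraries, with Nfya at 229.7 CPM in control and 201.9 in KO, Nfyb at 61.0 and 56.1, and Nfyc at 45.9 and 51.0.

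Other genes of the dendritic lineage did not share 1 direction. Xcr1, a chemokine receptor of conventional type 1 dendritic cells, had 278 counts in control (18.9 CPM) and 2 in KO (log2 ratio -5.39, interval -9.02 to -4.10). Flt3, the receptor that drives dendritic and lymphoid progenitors, stood at 122.7 and 35.8 CPM, and Irf8, a transcription factor needed for these cells, at 103.4 and 45.5. Itgax, which encodes CD11c and is shared with macrophages, went the other way, from 10.0 CPM in control to 26.9 in KO. Siglech, a marker of plasmacytoid dendritic cells, had 1 count in control and 0 in KO. The 4 dendritic markers (Itgax, Siglech, H2-Aa and Cd74) summed to 577 CPM in control and 92.6 in KO, but Itgax and Siglech alone gave 10.1 and 26.9 CPM, the opposite direction. Of the 5 B cell markers, Ebf1 and Ms4a1 were at 0 in both libraries and the sum was 0.340 and 0.908 CPM. Whether the number of dendritic cells or precursors in the sorted pools had a part in the class II values was not tested.

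Red cell genes were the largest group with low ratios. Erythroid progenitors switch on membrane skeleton proteins, blood group carriers, gas and ion transport and heme enzymes under the transcription factors GATA1 and KLF1 and the receptor of erythropoietin. Of 42 counted red cell membrane and enzyme genes, 25 were at least 2-fold lower in KO and 3 higher, with a median ratio of -1.78, beside -0.04 for all counted genes. In KO 16 of the 42 were under 5 CPM, so these were counted only through control and their direction was fixed by the minimum level. Among 25 counted erythroid transcription factor genes 4 were lower and 0 higher (median -0.46), and 22 had a negative ratio.

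At the top of this program, Klf1 had 59.0 CPM in control and 4.54 CPM in KO (-3.66, with an interval from -4.28 to -3.18). Its level differed far more than that of Gata1, at 102.3 and 47.5 CPM (-1.10). Nfia (33.6 and 9.98 CPM) and Bcl11a (156 and 49.3), the latter a repressor of fetal globin genes, were the other 2 factors past 2-fold. Gfi1b, a repressor active in red cells and platelets, stood at the border, at 101.9 and 51.0 CPM. Tal1, Ldb1 and Lmo2, which form a complex with GATA1, had ratios of -0.35, -0.12 and -0.83. Epor, the erythropoietin receptor gene, had 27.8 CPM in control and 3.03 CPM in KO, 9.18-fold lower.

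Membrane and cytoskeleton genes followed. Ermap, an erythroid membrane protein of the immunoglobulin family, had 1456 counts in control and 7 in KO, a 93.4-fold difference. The ankyrin gene Ank1 had 388 counts and 5, the Rh complex genes Rhd and Rhag 247 and 2 and 253 and 3, and the adducin gene Add2 251 and 13. The blood group gene Kel stood at 9.64 and 1.51 CPM. Not all membrane and skeleton genes differed: Sptb (9.30 and 6.05 CPM), Add1 (221 and 223) and Gypc (105.3 and 123.9), the last 2 expressed in many cells, lay within 2-fold.

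Transporters and enzymes included the genes with the most counts. Car1, which encodes a carbonic anhydrase of red cells, had the highest control level among the genes of the 20 lowest ratios, 495 CPM (7293 counts), and stood at 21.0 CPM in KO (139 counts). Its paralog Car2 was within 2-fold, at 881 CPM in control and 668 in KO (-0.40, from -0.45 to -0.35). The water channel gene Aqp1 stood at 248.7 and 24.4 CPM (10.2-fold lower), the sphingosine kinase gene Sphk1 at 35.6 and 1.36, and Cd24a, which encodes heat-stable antigen, at 437 and 79.4. Pklr, the pyruvate kinase of red cells and liver, the amino acid carrier gene Slc38a5 and the claudin gene Cldn13 had 496, 355 and 169 counts in control and 0 in KO. Against the floor these were at least 74.2-, 53.1- and 25.3-fold lower. The 3 members that were higher in KO included Cd59a, a complement inhibitor gene (13.1 and 72.2 CPM), and Mgst3 (12.9 and 38.9).

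Because GATA factors bind many red cell promoters, 4 promoters were chosen that hold a GATA motif and are shown as examples, each the 250 bases before the start from the same table, with GATAA, or TTATC where it lies on the other strand, in capitals.
Klf1: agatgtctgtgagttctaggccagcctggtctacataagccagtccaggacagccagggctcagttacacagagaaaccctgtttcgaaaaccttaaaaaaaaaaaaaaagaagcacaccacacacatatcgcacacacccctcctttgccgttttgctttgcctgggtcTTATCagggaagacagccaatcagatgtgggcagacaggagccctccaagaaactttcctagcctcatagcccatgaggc
Ermap: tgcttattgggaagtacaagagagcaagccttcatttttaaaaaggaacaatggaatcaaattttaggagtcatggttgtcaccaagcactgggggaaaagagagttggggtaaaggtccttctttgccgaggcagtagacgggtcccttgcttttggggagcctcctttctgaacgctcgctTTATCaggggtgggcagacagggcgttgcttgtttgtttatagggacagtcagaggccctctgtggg
Rhd: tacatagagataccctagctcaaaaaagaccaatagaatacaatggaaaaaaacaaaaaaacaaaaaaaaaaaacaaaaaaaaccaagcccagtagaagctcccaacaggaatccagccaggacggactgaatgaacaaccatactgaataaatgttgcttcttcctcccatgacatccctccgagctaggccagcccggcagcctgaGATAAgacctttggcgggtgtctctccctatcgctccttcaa
Pklr: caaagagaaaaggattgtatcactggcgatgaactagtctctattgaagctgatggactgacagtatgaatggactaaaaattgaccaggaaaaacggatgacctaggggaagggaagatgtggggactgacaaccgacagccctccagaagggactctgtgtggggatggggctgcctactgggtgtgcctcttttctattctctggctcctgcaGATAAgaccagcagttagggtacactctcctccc
They span chr8:84901732-84901981 (plus strand), chr4:119189996-119190245 (minus), chr4:134864286-134864535 (plus) and chr3:89135892-89136141 (plus, the first of the listed Pklr starts). Each holds the motif once, starting 80, 67, 42 and 34 bases before the start in that order. The Klf1 stretch also holds the Y box letters once on the other strand. GATAA on either strand was in 25.8% of the same windows of all 27025 genes and in 15.6% of those of counted genes with an entry. Of 29 erythroid genes lower in KO 21 had an entry, and 9 of these held it. Of 38 erythroid genes not lower 29 had an entry, and 6 of these held it. The matches describe letters only. A comparison of motif shares or CpG content between higher and lower genes was void, since only 76.8% of the higher and 76.0% of the lower genes had an entry in the table. The erythroid genes had an entry for 72.4% of the lower and 76.3% of the others, so their shares were not compared either.

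Heme and iron genes differed less than the membrane genes. Of 17 counted genes of heme synthesis and breakdown 2 were lower and 1 higher. Over all counted genes 5.38% were lower and 4.98% higher, shares that apply to the iron genes below as well. Cpox (87.5 and 32.5 CPM) and Alad (94.0 and 41.0), both enzymes of heme synthesis, were lower, while Hmox1, which breaks heme down, was higher (43.1 and 91.7). Among 20 counted iron genes, the ferric reductase gene Steap3 (97.4 and 38.9 CPM), Tfr2, encoding a sensor of transferrin (136 and 54.0), and the exporter gene Slc40a1 (22.4 and 7.11) were lower. The transferrin receptor gene Tfrc was within 2-fold (118 and 79.9 CPM). Lcn2, a siderophore-binding protein of neutrophils, was the 1 iron gene that was higher (9.03 and 94.2 CPM). The medians of both lists lay close to 0, at -0.09 and -0.07, and turned positive with library totals. The adult beta-globin genes, which share sequence and could share reads, were low in both libraries and higher in KO: Hbb-bs had 2.04 CPM in control (30 counts) and 12.3 in KO (81 counts), and Hbb-bt at 5.30 and 14.4 CPM.

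**Figure D3:**
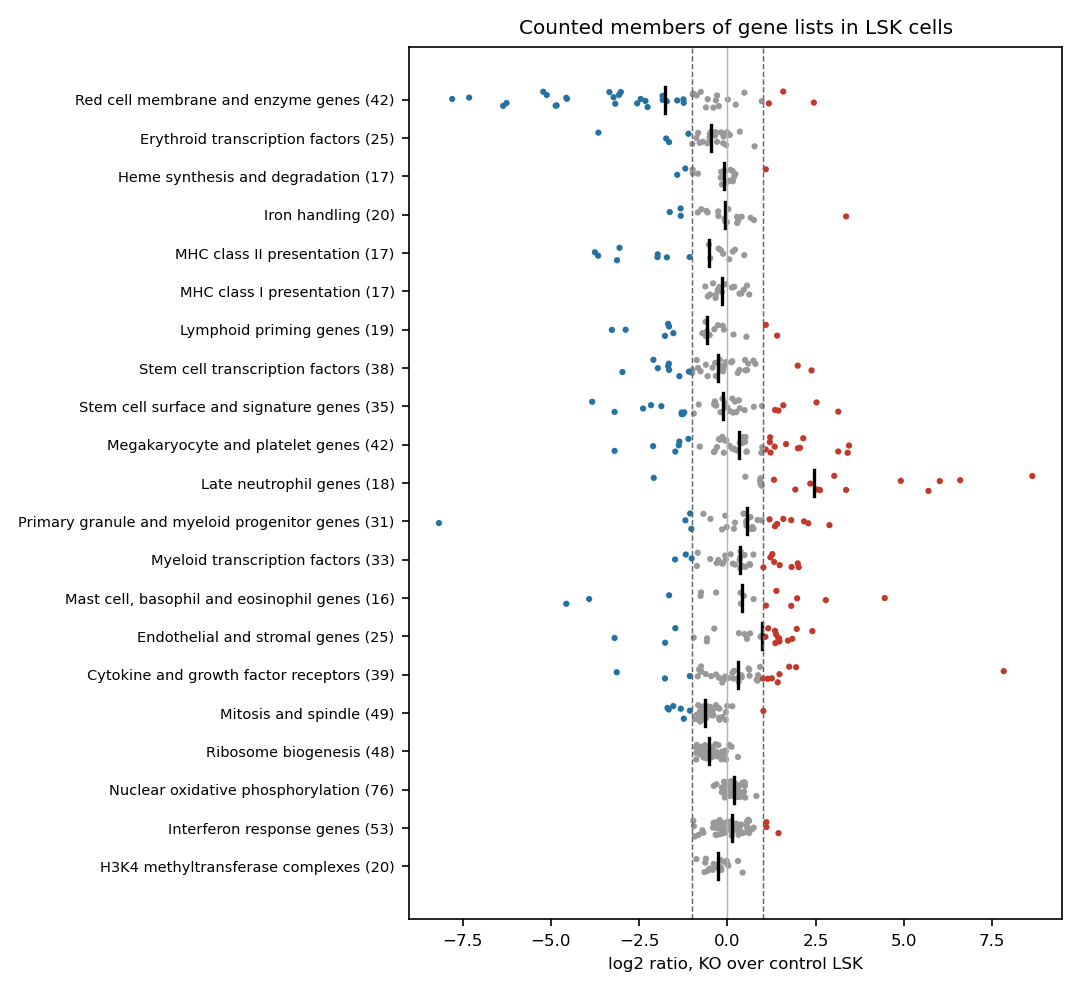
Log2 ratios of KO over control LSK for the counted members of 21 gene lists, 1 point per gene, with the number counted in brackets, black bars at the medians and dashed lines at 2-fold. Red points are at least 2-fold higher and blue points at least 2-fold lower in KO. Of these lists, red cell genes have the lowest median and late neutrophil genes the highest, and the oxidative phosphorylation and ribosome biogenesis genes all lie within 2-fold. Of the red cell genes 16 of 42 were counted only through control, and of the late neutrophil genes 6 of 18 only through KO.

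Megakaryocyte and platelet genes split. Megakaryocytes share a progenitor with red cells and use GATA1 as well. Of 42 counted genes 12 were at least 2-fold higher and 6 lower (median 0.31), beside 4.98% and 5.38% of all counted genes. Of the 42, 3 were under 5 CPM in control and 1 in KO, and these were counted only through the other library. On the higher side were Mmrn1, encoding the platelet protein multimerin (28.4 and 251 CPM), Itgb3, the integrin beta-3 chain of the fibrinogen receptor (54.9 and 220), and Plek, encoding pleckstrin (251 and 634). The platelet chemokine gene Ppbp stood at 4.35 and 47.5 CPM and Clec1b, which encodes CLEC-2, at 1.15 and 14.1. On the lower side were Vwf, encoding von Willebrand factor (92.8 and 9.98 CPM, 9.30-fold lower), Sdpr (29.8 and 6.81) and Selp, encoding P-selectin (67.9 and 26.0). Itga2b, the partner of Itgb3 (299 and 329 CPM), Pf4 (142 and 172) and Gp9 (18.9 and 27.7) lay within 2-fold. The 4 megakaryocyte markers summed to 465 CPM in control and 577 in KO.

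Late neutrophil genes were more often higher than lower in KO. Of 18 counted late neutrophil genes 12 were higher and 1 lower (median 2.45). Of the 18, 6 were under 5 CPM in control and were counted only through KO, so their direction was fixed by the minimum level. The alarmin gene S100a9, the partner of S100a8, had 0 counts in control and 96 in KO. Cxcr2, the receptor that draws neutrophils from marrow, stood at 22.7 and 134 CPM, Itgam, which encodes CD11b, at 23.4 and 120, and the lectin genes Clec4d and Clec5a at 19.6 and 122 and at 3.40 and 28.7. Padi4, which encodes a histone-citrullinating enzyme of neutrophils, was the 1 lower gene (69.3 and 16.2 CPM). Transcripts that define late neutrophils were near 0 in both libraries: Ly6g had 0 counts in both, Ltf 12 and 0, Camp 5 and 1 and Ngp 8 and 12. The 6 neutrophil markers summed to 1.70 CPM in control and 76.8 in KO, nearly all from S100a8 and S100a9.

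Granule genes of early myeloid cells showed no single direction. The peroxidase gene Mpo was lower (2026 CPM in control and 996 in KO), while the protease genes Elane (224 and 327) and Ctsg (397 and 648) were higher by less than 2-fold. Ms4a3, expressed in granulocyte and monocyte progenitors, stood at 95.6 and 468 CPM, and Hdc, the histamine-forming enzyme gene, at 41.5 and 146. In all, 8 of 31 counted genes of this list were higher and 4 lower (median 0.55). Of 33 counted myeloid transcription factor genes 8 were higher and 3 lower, beside 4.98% and 5.38% of all counted genes. Of the 33, 3 were under 5 CPM in control and were counted only through KO. Cebpa, which directs granulocyte commitment, stood at 69.8 and 162 CPM (log2 ratio 1.22, interval 1.09 to 1.34), and Cebpd at 7.74 and 27.7. Spi1, which encodes PU.1, was nearly level (116 and 134 CPM), and Irf8, described above, was among the lower.

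Several macrophage genes outside the class II group were higher. Lyz2, encoding lysozyme, had 395 CPM in control and 931 CPM in KO, and Fcer1g, a signalling chain of Fc receptors, at 40.5 and 191. The complement genes C1qa, C1qb and C1qc had ratios of 0.94, 1.54 and 1.19. Csf1r, the receptor of macrophage colony-stimulating factor, lay within 2-fold (29.7 and 39.2 CPM). Over the monocyte, macrophage and dendritic cell list, 15 of 35 counted genes were higher and 8 lower, and the 8 were Xcr1, Ly86 and 6 class II genes. The 5 monocyte and macrophage markers summed to 485 CPM in control and 1111 in KO. The part of mature cells in these values was not tested.

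Basophil, mast cell and eosinophil genes divided. Fcer1a, the alpha chain of the IgE receptor, had 13.4 CPM in control and 93.6 CPM in KO, Cpa3, a mast cell carboxypeptidase gene, at 96.7 and 381, and Mcpt8, a basophil protease gene, at 78.2 and 205. Prss34, another basophil protease gene, stood at 107.4 and 6.96 CPM, and Prg2, which encodes eosinophil major basic protein, had 209 counts in control and 3 in KO. Mcpt8 and Prss34 thus went in opposite directions. Both eosinophil markers, Epx and Prg2, summed to 19.8 CPM in control and 0.756 in KO.

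Lymphoid genes differed by group. The granzyme gene Gzmb stood at 4.62 and 105 CPM, Gzmc had 0 and 137 counts, and the natural killer receptor gene Klrb1c 13 and 184 counts. Of 47 T and NK cell genes 10 were counted, of which 8 were higher and 1, Lck, lower (11.7 and 3.93 CPM). As 7 of the 10 were under 5 CPM in control and were counted only through KO, their direction was fixed by the minimum level. T cell receptor transcripts gave no such picture: Cd3e, Cd3g and Trac were at 0 in control, and the 6 T cell markers summed to 3.26 CPM in control and 2.27 in KO. The NK cell markers summed to 199 and 480 CPM, of which Nkg7, also expressed in myeloid progenitors, gave 197 and 451. The lymphoid priming list had 6 lower and 2 higher genes of 19 counted (median -0.59), with Dntt, Cd27, Flt3, Satb1, Bcl11a and Ighm on the lower side. Ighm, the immunoglobulin mu gene, had 136 CPM in control and 47.0 CPM in KO. Cd79b, a B cell receptor subunit gene, had 362 counts in control and 10 in KO.

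Transcription factor genes of stem cells were more often lower than higher. Self-renewal of stem cells depends on factors such as HLF, MECOM, PRDM16 and the HOXA proteins, and Hoxa genes are known targets of MLL. Of 38 counted genes 9 were lower and 2 higher (median -0.27, 26 with a negative ratio). Over all counted genes 5513 of 10311 ratios were negative. Besides Hlf, Mecom and Prdm16, whose interval of -3.91 to -2.31 was the widest of these 3, the lower genes included Satb1, Hmga2 (29.0 and 9.08 CPM), Bcl11a, Msi2 (321 and 151) and Egr1. The 2 higher genes encode inhibitors of DNA binding, Id1 (3.53 and 19.1 CPM) and Id2 (18.6 and 74.4). Runx1 (144 and 140 CPM) and Erg (119 and 128) were nearly level, and Meis1, a partner of HOXA9, stood at 158 and 86.7 CPM. Of 4 counted Hox genes, Hoxa7, Hoxa9 and Hoxa10 were lower and Hoxb4 higher (2.72 and 8.17 CPM, 40 and 54 counts). Of these 4, 1 was under 5 CPM in control and 2 in KO, so these were counted only through the other library. Surface genes of stem cells were divided, with 5 of 35 higher and 9 lower, beside 4.98% and 5.38% of all counted genes. Procr (13.9 and 12.6 CPM) and Cd34 (761 and 851) were nearly level, while Slamf1, which encodes CD150, stood at 14.3 and 6.05 CPM and Thy1 at 22.5 and 9.08. The 4 stem cell markers (Slamf1, Procr, Mecom and Hlf) summed to 264 CPM in control and 74.3 in KO.

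Receptor genes gave a mixed picture in which beta chain genes for the receptor of IL-3 were higher. Csf2rb had 49.9 CPM in control and 119 CPM in KO and Csf2rb2, its near-identical paralog, with which it could share reads, at 20.5 and 79.4. Il10ra (12.8 and 43.3 CPM), Il2rg (55.3 and 149) and Tgfbr2 (65.1 and 131) were also higher. Of 39 counted receptors 8 were higher and 3 lower, beside 4.98% and 5.38% of all counted genes. The 3 lower receptors were Epor, Flt3 and Tgfbr3. Among adhesion genes, Plxnc1, a semaphorin receptor gene, was lower (167 and 41.9 CPM). In the Wnt and Notch list, Nrarp, a target and inhibitor of Notch (10.8 and 2.12 CPM), Notch2 (180 and 87.6) and the ligand gene Jag2 (7.54 and 3.63) were lower, while Dtx4 (22.95 and 72.0) was higher. Frzb, a Wnt antagonist gene, had 3 counts in control and 301 in KO. Of the 18 counted genes of the Wnt and Notch list, 2 were under 5 CPM in control and 3 in KO. These were counted only through the other library, so their direction was fixed by the minimum level. Of 25 matrix and vessel genes 12 were higher and 3 lower. Of the 25, 4 were under 5 CPM in control and 1 in KO, and these were counted only through the other library. Spp1, encoding osteopontin, stood at 334 and 854 CPM and Pdgfrb at 45.9 and 128, while the collagen IV gene Col4a2 was lower (32.3 and 9.38). The endothelial markers summed to 173 CPM in control and 248 in KO, with Cldn5 at 0 in both, and the stromal markers to 11.2 and 24.4. The part of such cells was not tested.

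Most mitosis genes had a negative ratio but lay within 2-fold. Of 49 mitosis and spindle genes 47 had a negative ratio (median -0.64), yet 6 were at least 2-fold lower and 1, Pttg1, at least 2-fold higher (15.6 and 31.8 CPM). Among the 6 were Plk1 (112 and 34.3 CPM) and Cenpf (77.0 and 26.5), both needed for chromosome segregation. The D-type cyclins, which drive entry into the cycle, differed from each other: Ccnd1 stood at 79.7 and 13.0 CPM, Ccnd2 at 368 and 248 and Ccnd3 at 183 and 257. Their partner Cdk6 was lower (74.2 and 32.1 CPM), Cdk4 was nearly level (566 and 532) and the inhibitor gene Cdkn1a was higher. DNA replication and DNA repair genes had 0 of 47 and 0 of 53 past 2-fold, with medians of -0.27 and -0.31. Ribosome biogenesis genes had 45 of 48 negative ratios and 0 past 2-fold (median -0.52).

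Most nuclear genes of energy metabolism lay within 2-fold. None of 76 nuclear oxidative phosphorylation genes, 71 mitochondrial and 79 cytosolic ribosomal protein genes passed 2-fold (0 in each list), with medians of 0.18, -0.02 and -0.18. Mitochondrially encoded genes had 13 of 15 positive ratios and 2 past 2-fold, both higher (median 0.60), and summed to 28047 CPM in control and 40358 in KO. Of 28 glycolysis genes 5 were lower, beside 5.38% of all counted genes. They were Pklr, the lactate carrier gene Slc16a1 (191 and 43.0 CPM), Fbp1, Hk3 and Eno3. In KO 3 of the 28 were under 5 CPM, so these were counted only through control and their direction was fixed. Pkm, which encodes the pyruvate kinase of most cells, had 1022 CPM in control and 1185 CPM in KO. Of 28 lipid synthesis genes 2 were lower and 0 higher, beside 5.38% and 4.98% of all counted genes. Fasn, encoding fatty acid synthase, was among the lower (269 and 104.2 CPM). Antioxidant genes had 5 higher and 2 lower of 31, with Nqo1 lower (19.6 and 4.39 CPM) and Mgst1 higher (9.64 and 38.9), and a median of -0.01 that turned positive with each other scaling tried.

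Stress and signalling lists gave a few genes each, beside 4.98% of all counted genes higher and 5.38% lower. Jun (8.15 and 47.6 CPM) and Socs3, which encodes an inhibitor of cytokine signalling (6.38 and 39.6), were the highest of 28 immediate early genes, of which 4 were higher and 2 lower. Interferon response genes, which could respond to pIpC in both groups, had 3 of 53 higher and 0 lower (median 0.12), the 3 being Usp18, Ddx58 and Ifitm1. Of 41 p53 targets 5 were higher, with Perp at 9.03 and 34.2 CPM, and Ccnd1 was the 1 lower. Trp53 itself stood at 404 and 417 CPM. Of 27 apoptosis regulators Bcl2 (108.4 and 49.5 CPM) and Casp12 were lower and 0 were higher, and Mcl1, another protector from apoptosis, stood at 206 and 232 CPM. Of 17 chemokine and cytokine genes 5 were higher and 0 lower, among them Csf1 (12.0 and 33.3 CPM) and Ccl2 (1.43 and 8.77). Of the 17, 3 were under 5 CPM in control, Ccl2 among them, and were counted only through KO.

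Genes of the H3K4 machinery stayed within 2-fold. None of 20 counted members of the methyltransferase complexes passed it (0 in either direction). Over all counted genes 4.98% were higher and 5.38% lower, so a count of 0 does not set a list this small apart. Beside 5513 of all 10311 counted genes, 16 of the 20 had a negative ratio (median -0.26). Dpy30 had the lowest. Its direct partner Ash2l stood at 119.8 and 120.3 CPM, and the other core subunits Wdr5 (181 and 159) and Rbbp5 (57.4 and 58.4) were nearly level too. The catalytic subunit genes Kmt2a, Kmt2b, Kmt2c, Kmt2d, Setd1a and Setd1b had ratios between -0.61 and -0.28. Of 7 demethylase genes 0 passed 2-fold. Of 30 Polycomb genes Pcgf2 (11.1 and 2.42 CPM), Phf19 (18.6 and 7.11) and Cbx6 (103.8 and 50.5) were lower and 0 higher, and Ezh2 stood at 141 and 108.6 CPM.

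The genes were then read in the other populations. MyePro KO and control are 1 further library each, scaled together with LSK but sharing no library with it. Whether the LSK and MyePro cells came from the same mice is not given in the sources used here. Of the genes counted in LSK, 11.6% were at least 2-fold higher and 7.55% at least 2-fold lower in KO MyePro. Of the 514 genes higher in KO LSK, 446 (86.8%) were also higher in KO MyePro, which is 37.4% of the 1193 higher there, and 0 were lower. Of the 555 lower in KO LSK, 324 (58.4%) were also lower, 41.6% of the 778 lower there, and 28 were higher. Across the 10311 genes the 2 ratios had a Pearson r of 0.73, given as a description, since genes are not independent replicates and both ratios share the scaling. The lower genes thus matched less often than the higher ones in these libraries, a difference that was not tested.

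**Figure D4:**
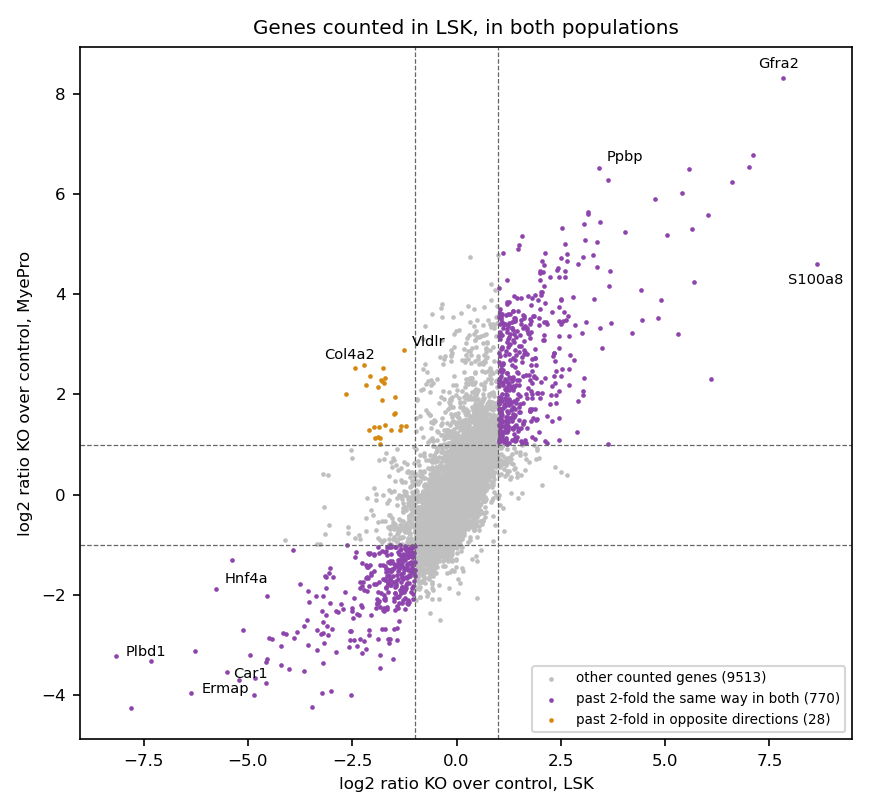
Log2 ratios of KO over control in LSK (horizontal) and MyePro (vertical) for the 10311 genes counted in LSK, 1 library per group. In purple are genes past 2-fold the same way in both and in orange the 28 past 2-fold in opposite directions, all of which were lower in KO LSK and higher in KO MyePro.

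The position of these genes in normal differentiation was read from the control libraries, which also enter the ratios above. Of the genes higher in KO LSK, 37.7% were at least 2-fold lower in control MyePro than in control LSK and 10.7% at least 2-fold higher. For all counted genes these shares were 9.00% and 2.46%. Of the genes lower in KO LSK, 25.2% were lower and 14.6% higher in control MyePro. Because a chance high or low count in control LSK enters both ratios, these shares are a description. Of 42 red cell genes 28 were at least 2-fold higher in control MyePro than in control LSK and 0 lower, with Car1 at 2215 CPM and Ermap at 443. Of 17 class II presentation genes 6 were at least 2-fold lower there and 1 higher, with Cd74 at 37.9 and H2-Ab1 at 58.0 CPM in control MyePro.

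LT-HSC gave the only replicated values, 2 control and 2 KO libraries, amplified before library preparation and scaled apart. By edgeR's quasi-likelihood test with Benjamini-Hochberg adjustment 2 of 12844 genes were called (0.0156%), both Y-linked genes lower in the KO libraries, and 294 genes had an unadjusted p under 0.05. The groups differed in sex there: Xist stood at 239 and 150 CPM in the control libraries, against 2165 and 1504 CPM in those labelled KO, and Kdm5d at 29.8 and 19.2 CPM and at 0 in both. Dpy30 was not lower in both of the latter (12.9 and 8.43 CPM in control, 14.1 and 4.67 in those labelled KO), and KO is the label wherever LT-HSC values follow. Of 407 genes higher in KO LSK and tested in LT-HSC 198 had a positive fold change, and of 482 lower genes 225 had a negative one. These are 48.6% and 46.7%, beside 47.5% positive and 52.5% negative over all 9459 genes counted in LSK and tested. In neither set was a gene called (0 of each), and 3 and 13 had an unadjusted p under 0.05 in the LSK direction, with 9 of each set in the opposite one. Over the 9459 genes 64 were higher and 117 lower at that p. Across 9459 genes the LSK ratio and the LT-HSC fold change had a Pearson r of -0.00, as a description.

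Both LT-HSC libraries labelled KO lay above both controls for 12.2% of these genes and below them for 14.8%. Among genes higher in KO LSK 11.8% lay above, and among those lower in KO LSK 12.2% lay below, so the shares in the LSK direction did not exceed those over all genes. The genes that follow were chosen after their values were seen, as examples without overlap. Cox4i2 stood at 0.108 and 0.0693 CPM in control LT-HSC and 3.97 and 5.798 in KO (log2 fold change 5.74 ± 0.93, SE, n = 2 per group, edgeR adjusted p = 0.825). Ermap stood at 23.3 and 19.8 CPM in control and 10.0 and 9.53 in KO, and its fold change was -1.14 ± 0.346 (edgeR adjusted p = 0.999). Car1 stood at 41.5 and 22.3 CPM and at 3.27 and 15.0, and Aqp1 at 15.97 and 9.80 and at 7.18 and 3.92. The adjusted p did not pass the threshold for any of the 4. The class II gene H2-Aa showed no such separation, with 36.8 and 42.9 CPM in control and 45.2 and 37.9 in KO, and Cd74 had 57.7 and 202 CPM against 83.5 and 89.0. Hoxa9, with 14.2 and 4.90 CPM against 16.4 and 8.01, and Hlf, with 242 and 119 CPM against 291 and 241, also overlapped.

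**Figure D5:**
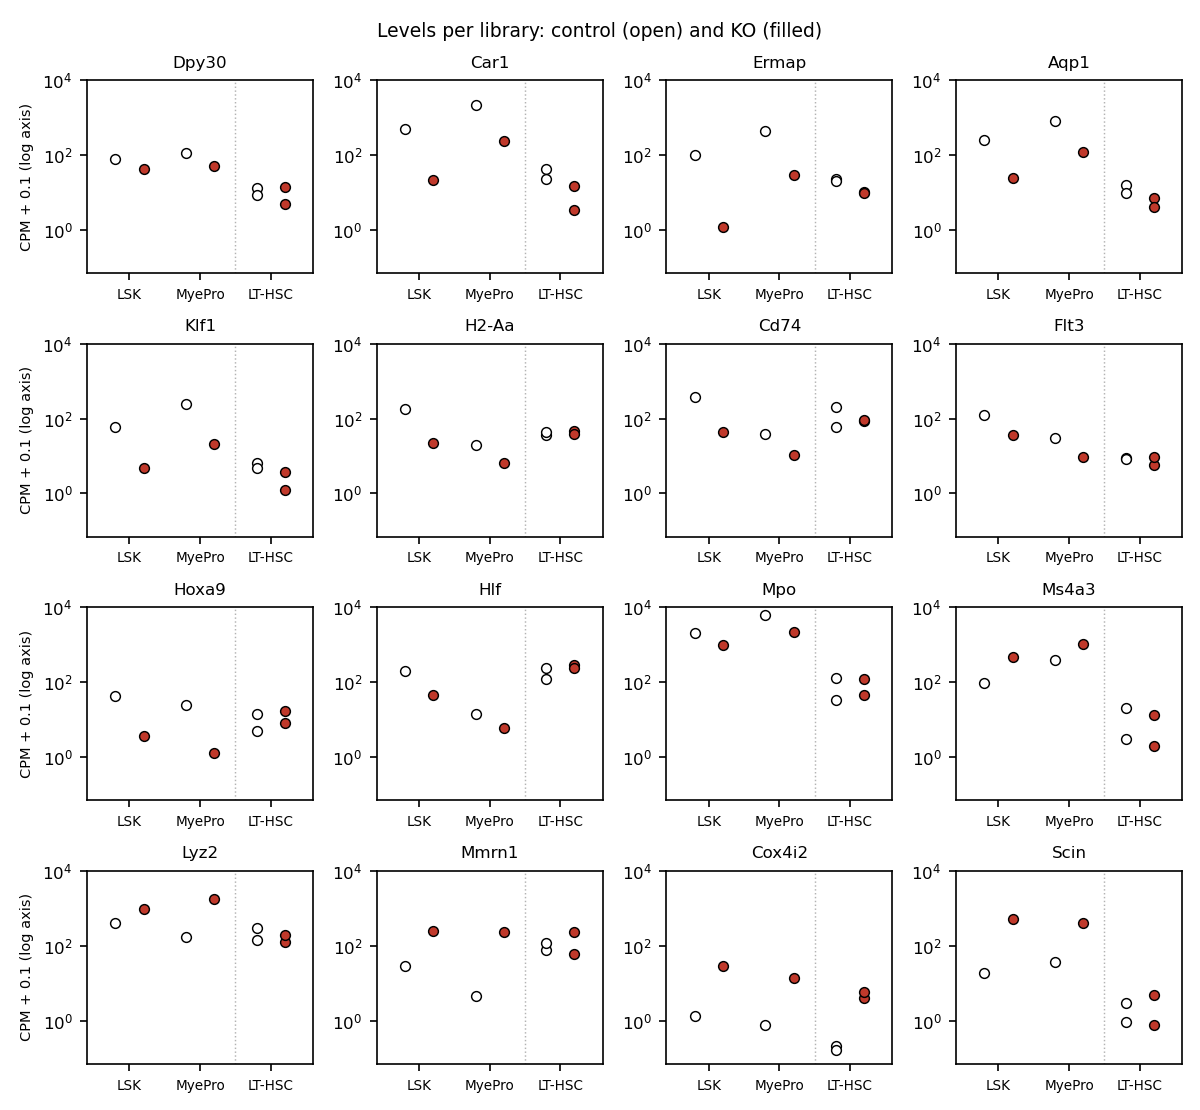
Levels of 16 genes in each of the 8 libraries, in CPM plus 0.1 on a log axis, with control open and KO filled. LSK and MyePro have 1 library per genotype and LT-HSC, right of the dotted line and scaled apart, has 2. Car1, Ermap and Aqp1 are lower in KO in all 3 populations and do not overlap in LT-HSC, and Cox4i2 is higher in all 3, but 14.8% and 12.2% of genes counted in LSK also do not overlap in LT-HSC, below and above the controls. H2-Aa and Hoxa9 are lower in KO LSK and MyePro and overlap in LT-HSC.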

How the data were processed

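Poly(A)+ RNA of sorted cells was sequenced, and the authors deposited raw counts per gene, with no normalization. Tools listed in the submitters' processing notes, with no role for each, are HTSeq 0.6.0, TopHat2, Picard 1.126, CASAVA 1.8.4 and DESeq 3.0, on the build mm10. Which annotation and strandedness the counting used is not given in the sources used here. Reads of overlapping and antisense genes therefore cannot be told apart. Per the labels' protocols, LSK and MyePro RNA was not amplified and LT-HSC RNA was.

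In the files for LSK, entries without a gene (6.25% no feature and 37.9% not unique in control, 3.83% and 29.9% in KO) were left out. TMM factors (edgeR 4.0.16, R 4.3.3) came from the 4 LSK and MyePro libraries over genes averaging at least 1 CPM. Genes needed a mean of 5 CPM over both LSK libraries, and the prior count was 2. Intervals on ratios are 95% Clopper-Pearson intervals of 2 Poisson counts and cover counting error only. A fold against 0 counts used a floor of 3 counts per library, 0.204 CPM in control and 0.454 in KO. Differences were read at 2-fold, with no test.

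LT-HSC counts were tested with edgeR's quasi-likelihood test, two-sided, on genes with at least 1 CPM in 2 libraries, at an adjusted p of 0.05, and with DESeq2 1.42.0 as an alternative. The 2 libraries of a genotype are pools from separate transplants, whose numbers in the labels are shared between genotypes, and same-numbered libraries deviated together (correlation 0.292). The steps were tested on simulated data.

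Named genes were Dpy30, the 20 highest and 20 lowest ratios at 10 CPM or more, list members past 2-fold, the up to 4 most highly expressed members of each list, and members of a few short lists. The MHC lists and the partners set beside them were chosen after their values were seen. The members and all lists were chosen with earlier results of these data known. Alternatives were other scalings, minimum levels, prior counts and thinning to 6000000 counts. The 6 ChIP-seq samples were not analysed here. Values of a few list members are not reported here.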

Additional observations from a re-analysis of the deposited data

Results flagged for a closer look

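In 6 named genes given here the KO library was at least 2-fold lower in LSK and at least 2-fold higher in MyePro, each with 1 library per group, and the difference between the populations was not tested. Vldlr, a lipoprotein receptor gene, had 30.3 CPM in control LSK and 12.6 in KO (log2 ratio -1.26), and 1.30 and 10.6 CPM in MyePro (2.88). Col4a2, a collagen IV gene, had ratios of -1.77 in LSK and 2.53 in MyePro, and Timp3, an inhibitor of matrix proteases, -1.48 and 1.96. Slamf1, the CD150 gene, had -1.22 and 1.37. Ciita, the class II coactivator gene, had -1.98 and 1.35, on 0.601 and 1.76 CPM in MyePro. Sdpr, a caveolar protein gene, had -2.11 and 1.29. In each of the 6 the control level was at least 2-fold lower in MyePro than in LSK.

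The LSK and MyePro tables hold an entry of no annotated mouse gene, DPY30-SPKIG, that the comparisons did not use. It had 4961 counts in control LSK (337 CPM) and 2426 in KO (367 CPM), a ratio of 0.12 (interval 0.05 to 0.19), and a MyePro ratio of 3.80. What the entry counts is not given in the sources used here.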

How the results depend on the processing

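With 1 library per genotype, no LSK replicate could be left out and no paired LSK analysis could be made. Among 7 alternatives, 329 genes were higher in KO with a minimum of 10 CPM, and 2619 were higher and 1871 lower with no minimum but 1 count. These bounds count fewer or more weak genes by construction. Library totals changed the sign of 7 list medians, those of heme, iron, antioxidant, glycolysis, MYC network, H3K4 demethylase and mitochondrial ribosomal protein genes, and kept 970 of the 1069 genes past 2-fold. Of 250 named genes, which are those past 2-fold and Dpy30, 224 moved by less than their interval under library totals. Among those that each alternative could be read on (199 with a minimum of 10 CPM, 249 after thinning and 250 otherwise) 0 reversed. In LT-HSC, 4 genes passed with the transplant number as a replicate block, 14 with DESeq2 and 4 with no filter, and 0 to 5 with each library left out in turn, against 2 in the analysis above. Leaving out either control gave 0, without KO 1 it was 3 and without KO 2 it was 5, and the cause was not tested. Depth limits the weak genes most: in KO LSK, 3 counts are 0.454 CPM.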
